A study of Drosophila melanogaster with 3 samples.

Results

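The genes described here encode the nuclear subunits of the 5 oxidative phosphorylation complexes. They were taken as the protein-coding genes of the release 6 annotation on arms X, 2L, 2R, 3L, 3R and 4 whose symbol starts with ND-, SdhA to SdhD, UQCR, COX followed by a digit, or ATPsyn. The rule found 87 genes among 13945, of which 40 belong to complex I, 7 to complex II, 9 to complex III, 16 to complex IV and 15 to complex V. The rule reads symbols and no measured value, though it was written with earlier results of these data known. Of the 87 genes, 24 carry an L at the end of a subunit name and were treated as paralogs, 18 are partners of such a paralog, and 45 have none.

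The data are chromatin immunoprecipitation with sequencing (ChIP-seq), an assay of where a protein sits on DNA, for OdsH, a homeodomain protein. All libraries came from whole Drosophila melanogaster at the white prepupa stage, both sexes together, of a transgenic line that stably carries OdsH with GFP fused to its C terminus. Sonicated fragments ran from 200 to 800 bp, per the labels. The labels differ on the antibody, since the description of each sample names one against GFP and the antibody field names OdsH, and which was used cannot be told here. The animals' age beyond the stage is listed as unknown. The labels give 3 biological replicates in 1 group, with no other genotype, stage or sex, and the 3 replicate lists share 1 control alignment. The deposited data used here are peak lists. The irreproducible discovery rate (IDR) set holds 8700 peaks that passed the authors' threshold on repeatability, and the pooled list and each replicate's list hold 30000 rows that run down into background. A replicate's value for a gene is that of its strongest row within 1000 bp, which need not lie at the IDR summit. Sequencing depth per library is unknown, so no counting interval can be given. In whole animals, binding in fewer cells and weaker binding per cell cannot be told apart.

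Complexes I to IV pass electrons from nutrients to oxygen in the inner mitochondrial membrane, and complexes I, III and IV move protons across it. Complex V, the ATP synthase, lets the protons return and makes ATP. In flies many of these subunit genes have a duplicate named with a final L, and such duplicates are known as a class for expression mainly in the testis, while their partners are used in most tissues. A short sequence named the nuclear respiratory gene element is known from Drosophila genes of this pathway, often in the first intron.

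A gene was counted when the summit of an IDR peak, the single base the authors' caller marked as its highest point, lay within 1000 bp of any of its annotated transcription start sites (TSSs). The windows below show the DNA under summits at genes of complexes I, II, IV and V and, for contrast, the DNA before paralogs that have no summit. Each window for a subunit gene is 101 bases centred on its strongest summit, and each window for an L-suffixed paralog is the 101 bases just before its first start, since no IDR summit lies near it. All are read from the RefSeq release 6 genome (dm6) on the strand of the named gene. Capitals mark a searched word, which is the TATA-type word in ND-ASHI and ND-23, the DNA replication-related element in SdhC and the nuclear respiratory gene element in ND-49.
ND-ASHI (chrX:6679302-6679402, minus strand): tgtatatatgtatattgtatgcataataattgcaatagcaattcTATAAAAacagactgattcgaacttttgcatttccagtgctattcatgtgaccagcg
ND-75 (chrX:8252402-8252502, minus strand): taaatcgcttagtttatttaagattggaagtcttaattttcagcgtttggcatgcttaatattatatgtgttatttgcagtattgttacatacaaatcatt
COX5A (chr3R:11819462-11819562, plus strand): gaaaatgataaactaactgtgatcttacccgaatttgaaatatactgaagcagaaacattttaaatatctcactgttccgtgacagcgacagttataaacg
COX7B (chr3L:17425282-17425382, plus strand): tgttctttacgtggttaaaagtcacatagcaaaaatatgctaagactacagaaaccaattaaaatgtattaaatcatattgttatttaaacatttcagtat
SdhC (chr3R:11210086-11210186, minus strand): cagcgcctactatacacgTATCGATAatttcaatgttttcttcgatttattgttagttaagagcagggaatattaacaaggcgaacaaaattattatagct
SdhCL (chr3R:11115707-11115807, minus strand): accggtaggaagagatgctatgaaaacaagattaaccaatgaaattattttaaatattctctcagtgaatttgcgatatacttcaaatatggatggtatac
ND-23 (chr3R:15837217-15837317, minus strand): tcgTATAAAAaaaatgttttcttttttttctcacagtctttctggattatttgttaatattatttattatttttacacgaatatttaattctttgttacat
ND-49 (chr4:570904-571004, minus strand): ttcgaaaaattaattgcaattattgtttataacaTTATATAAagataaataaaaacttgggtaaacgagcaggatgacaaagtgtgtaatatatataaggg
ND-49L (chr3R:25358184-25358284, plus strand): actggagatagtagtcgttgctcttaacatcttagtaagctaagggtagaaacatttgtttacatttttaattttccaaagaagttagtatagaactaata
ATPsynCF6 (chr3R:23356201-23356301, minus strand): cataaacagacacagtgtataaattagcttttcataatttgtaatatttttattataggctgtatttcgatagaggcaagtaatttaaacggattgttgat
ATPsynCF6L (chr3L:5012134-5012234, minus strand): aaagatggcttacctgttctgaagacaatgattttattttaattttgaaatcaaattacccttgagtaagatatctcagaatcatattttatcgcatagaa
The summit windows are rich in A and T. Mean GC content over the 21 IDR summits near subunit genes was 29.0%, against 33.0% over the 3167 summits within 1000 bp of any protein-coding TSS. The lower GC content is not particular to summits. From 250 bases before to 50 after the first start it was 35.0% over the 87 subunit genes, against 39.1% over all genes. It was 35.4% over the 69 subunit genes without a summit.

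An IDR summit lay near 18 of the 87 subunit genes (20.7%), and 69 had none. Over all protein-coding genes the share was 23.0%, so the subunit genes as one set sat close to the background. In each replicate's own 8700 strongest rows, 16 subunit genes (18.4%) had a summit in replicate 1, where the background was 26.7%. Replicate 2 gave 17 genes (19.5%) against a background of 25.4%. Replicate 3 gave 22 genes (25.3%) against 24.6%. The replicate mean was 21.1% ± 3.69 (SD, n = 3), below the background in replicates 1 and 2 and just above it in replicate 3. In the pooled list with the threshold removed, 33 subunit genes (37.9%) had a summit against a background of 38.6%. With 3 replicates the smallest two-sided p that an exact test could give is 0.25, so the shares are given as descriptions.

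**Figure D1:**
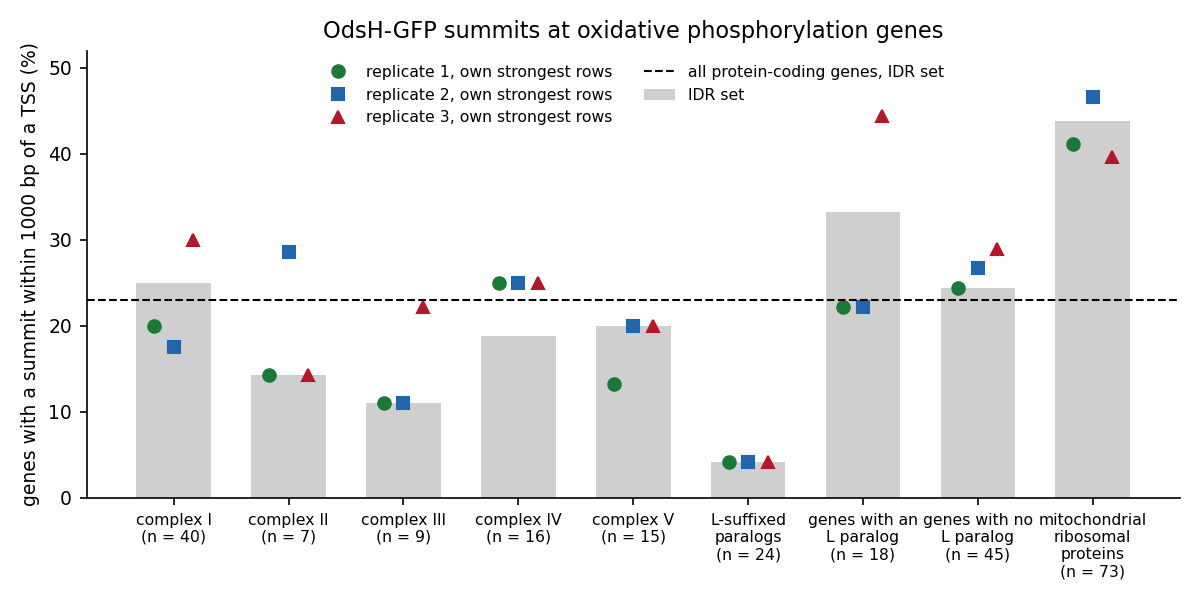
Share of genes (%, y axis) with a summit within 1000 bp of a TSS, by complex, by paralog class and for the mitochondrial ribosomal protein genes. Bars show the IDR set, points each replicate's own strongest rows, and the dashed line the share of all protein-coding genes in the IDR set (23.0%). The L-suffixed paralogs stand at 4.17% in the IDR set and in every replicate, and the complex with the highest share differs between replicates.

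The complexes could not be ranked beyond the spread of the replicates. Against the 23.0% of all genes, complex I had a summit at 10 of 40 genes (25.0%) in the IDR set, and at 8, 7 and 12 genes in replicates 1, 2 and 3 (22.5% ± 6.61, SD, n = 3). Complex IV had 3 of 16 genes (18.8%) in the IDR set and 4 in each replicate. Complex V had 3 of 15, with 2, 3 and 3 genes in the replicates (17.8% ± 3.85, SD, n = 3). Complex II had 1 of 7 genes (14.3%; replicates 19.0% ± 8.25, SD, n = 3) and complex III 1 of 9 (11.1%; replicates 14.8% ± 6.42, SD, n = 3). The highest share belonged to complex IV in replicate 1 (25.0%), to complex II in replicate 2 (28.6%) and to complex I in replicate 3 (30.0%), so the order was not stable.

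In complex I, the entry point for electrons from NADH, the strongest summit near any subunit gene lay at ND-ASHI (FBgn0029888, chrX:6677262-6679118, minus strand), an accessory membrane-arm subunit. Its authors' signal value, which describes a peak only within its own list, was 798, rank 258 of the IDR set. In replicates 1, 2 and 3 the strongest row near the gene had signal values of 155, 388 and 252 and stood at ranks 526, 182 and 256. The replicates placed it among their strongest rows alike. The summit lies 234 bp upstream of ND-ASHI and 288 bp from the nearest start of Fum1, the fumarase gene of the citric acid cycle, in an intron of Fum1. Fum1 runs on the other strand. The closest pair of starts of these neighbours lies 164 bp apart, but at another start of ND-ASHI than the one 234 bp from the summit. The peak therefore lies within 1000 bp of both a respiratory chain gene and a citric acid cycle gene.

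The next strongest were ND-MWFE, ND-75 and ND-SGDH. ND-MWFE, a small accessory subunit on arm 2R, had a signal value of 484 (rank 782) at 197 bp upstream, in an intron of TppII, and the replicates gave 115, 169 and 195 at ranks 969, 1140 and 466. The start of TppII is only 24 bp from that summit. ND-75, the large iron-sulphur core subunit, had a signal value of 348 (rank 1358) at 765 bp upstream, and the replicates gave 98.2, 154 and 89.0 at ranks 1269, 1326 and 1950. That summit is nearer to CG1632, at 218 bp. ND-SGDH, an accessory subunit, had the only group of 3 IDR summits among the subunit genes. The strongest of them, with a signal value of 292 (rank 1838), lay 34 bp upstream, and others of 90.7 and 262 lay 235 and 803 bp upstream, the last in an intron of RhoGAP68F. The strongest row near ND-SGDH had signal values of 89.3, 116 and 106 at ranks 1508, 2127 and 1440 in the replicates, and in replicate 2 it lies 781 bp from the start, away from the strongest IDR summit.

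The remaining complex I genes had weaker or less repeatable rows. ND-24, a core subunit of the NADH-oxidising module, had a signal value of 245 (rank 2355) at 54 bp into its 5' UTR, beside the divergent gene corolla. Replicates 1 and 3 listed it with 62.7 and 65.8 at ranks 2605 and 2947, and replicate 2 listed no row within 1000 bp. ND-23, an iron-sulphur core subunit, had a signal value of 110 (rank 6237) at 150 bp upstream and showed the same pattern, with 30.0 and 36.2 at ranks 6835 and 5839 in replicates 1 and 3 and no row in replicate 2. ND-MNLL had summits of 192 (rank 3262) at 840 bp downstream and 140 (rank 4783) at 136 bp upstream. Its strongest row had signal values of 55.3, 75.0 and 63.0 at ranks 3140, 3935 and 3101 in the replicates, so this gene was listed by all 3. ND-B22 had a signal value of 108 (rank 6378) at 24 bp into its 5' UTR, and the replicates gave 23.9, 49.9 and 37.1 at ranks 8768, 6353 and 5697.

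At the low end of the set stood ND-49 and ND-B18, each outside every replicate's own 8700 strongest rows. ND-49, the core subunit beside the quinone site, had a signal value of 91.4 (rank 7502) at 164 bp upstream of its nearest start, and replicates 1 and 2 listed it with 15.7 and 31.1 at ranks 13578 and 10343 while replicate 3 did not list it. ND-B18 had a signal value of 82.6 (rank 8215), and the replicates gave 21.5, 33.9 and 22.0 at ranks 9762, 9568 and 9262. In total 4 of the 7 nuclear core subunits of complex I had a summit (57.1%), with 6 of 27 accessory subunits (22.2%) and 0 of 6 L-suffixed paralogs, beside 23.0% of all genes. This division was made after the values were seen, and the core count was 3, 1 and 4 genes in replicates 1, 2 and 3. The 4 of replicate 3 are not those of the IDR set, since they include ND-51 and not ND-49.

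The complex I genes with no IDR summit within 1000 bp and no L in their name were ND-13A, ND-13B, ND-15, ND-18, ND-19, ND-20, ND-30, ND-39, ND-42, ND-51, ND-ACP, ND-AGGG, ND-B12, ND-B14, ND-B14.5A, ND-B14.5B, ND-B14.7, ND-B15, ND-B16.6, ND-B17, ND-B17.2, ND-B8, ND-MLRQ and ND-PDSW. Their nearest IDR summits ranged from 1059 bp for ND-39 to 139789 bp for ND-AGGG. ND-39 and ND-MLRQ (1154 bp) are the genes just outside the window, and ATPsynE (818 bp) and UQCR-14 (918 bp) are the last just inside it. ND-51, the flavin-binding core subunit, has one of the strongest peaks of the whole set at 3330 bp upstream, with a signal value of 1757 and rank 31, too far to count by the rule.

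**Figure D2:**
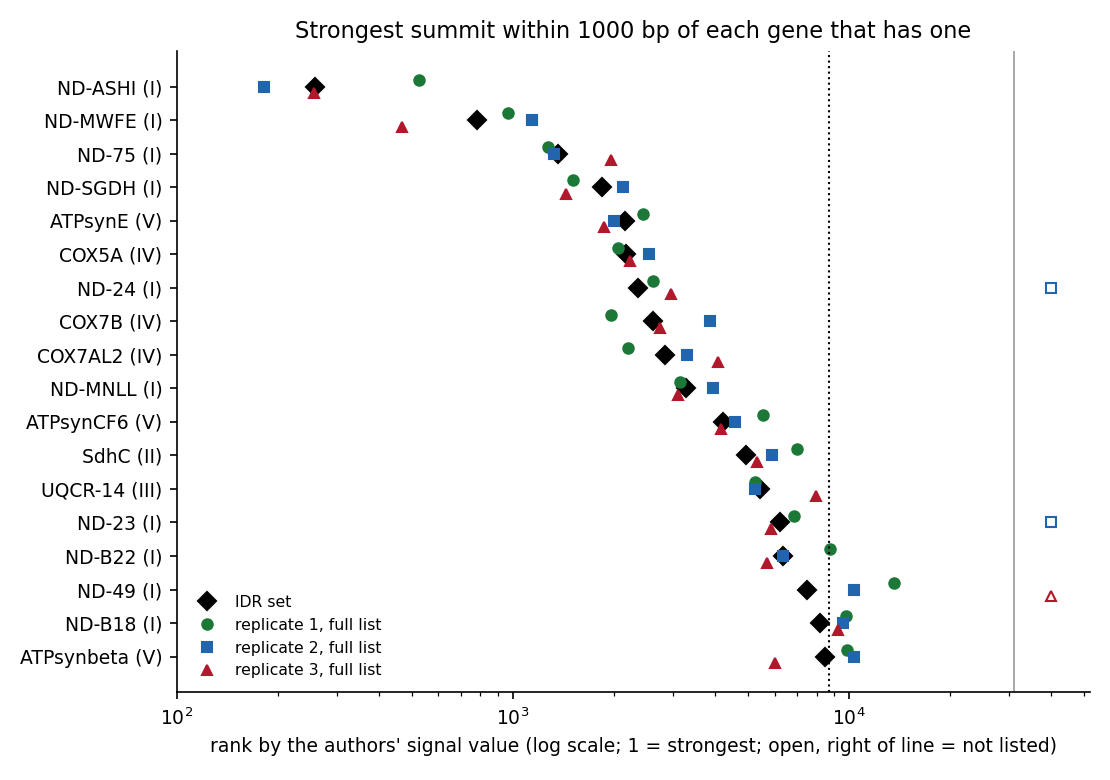
Rank of the strongest summit within 1000 bp of each of the 18 genes with an IDR summit (x axis, log scale, 1 is the strongest), in the IDR set (diamonds) and in each replicate's full list (circles, squares and triangles), with the complex in brackets. The dotted line marks rank 8700, and open symbols to the right of the grey line are genes with no row in that list, as for ND-24 and ND-23 in replicate 2 and ND-49 in replicate 3.

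In complex II, succinate dehydrogenase, only SdhC (FBgn0037873, chr3R:11208887-11209849, minus strand), a membrane anchor subunit, had an IDR summit. Its signal value was 136 (rank 4944), 287 bp upstream, and the replicates gave 29.5, 53.2 and 39.5 at ranks 6975, 5885 and 5331. The summit is nearer to the divergent gene Tctp, at 111 bp. SdhA, the flavoprotein subunit, had a row within 1000 bp in replicate 2 alone, with a signal value of 126 (rank 1839), at 869 bp upstream. Replicate 1 had a row of 47.6 (rank 3861) just outside the window, at 1028 bp upstream. The nearest IDR summit to SdhA was 22472 bp away. SdhB, the iron-sulphur subunit, had rows of 7.91 (rank 28638) in replicate 1 and 13.2 (rank 22899) in replicate 2, below the strongest 8700 rows of both lists. SdhD, the other membrane anchor, was listed in all replicates with 18.4, 35.0 and 14.4 at ranks 11468, 9263 and 13618 and in the pooled list with 73.0 at rank 9163, each time beyond rank 8700. SdhAL, SdhBL and SdhCL had no row within 1000 bp in any replicate.

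In complex III, which passes electrons to cytochrome c, the only gene with a summit was UQCR-14 (FBgn0030733, chrX:16286288-16286988, plus strand). Its signal value of 125 (rank 5442) lay 918 bp upstream in the 3' UTR of eas, and the replicates gave 37.5, 58.9 and 26.0 at ranks 5249, 5260 and 7984. UQCR-11 had a pooled signal value of 77.0 at rank 8767, just under the IDR set, with ranks of 22543, 12423 and 5304 in the replicates. UQCR-6.4, UQCR-C1, UQCR-C2 and UQCR-Q had no IDR summit within 1000 bp. UQCR-C2 came closest, at 1301 bp.

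In complex IV, cytochrome c oxidase, COX5A, COX7B and COX7AL2 had a summit. COX5A (FBgn0019624, chr3R:11819359-11820299, plus strand) had a signal value of 260 (rank 2175), 87 bp from its nearest start in its own intron. The replicates gave 73.4, 103 and 80.6 at ranks 2046, 2533 and 2224. The divergent gene glo starts 20 bp from the other start of COX5A, not from the start nearest the summit. COX7B had a signal value of 226 (rank 2616) at 145 bp upstream, with 75.8, 76.2 and 69.8 in the replicates at ranks 1963, 3868 and 2729. Sec3 lies nearer to that summit, at 115 bp. COX7AL2, the L-suffixed gene with a summit, is described with the paralogs. COX4, COX5B, COX6B, COX7A, COX7C and COX8 had none. COX8 was listed at rank 5959 in replicate 1 and 7641 in replicate 2, was not listed in replicate 3 or in the pooled list, and its nearest IDR summit was 22481 bp away.

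In complex V, ATPsynE, ATPsynCF6 and ATPsynbeta had a summit. ATPsynE, a membrane subunit (FBgn0038224, chr3R:14326947-14327735, plus strand), had a signal value of 261 (rank 2159) at 818 bp downstream, where spn-B is nearer at 165 bp. The replicates gave 65.5, 120 and 91.5 at ranks 2437, 1996 and 1867, but in replicate 3 that row lies 32 bp from the start and not at the IDR summit. ATPsynCF6, a peripheral stalk subunit, had a signal value of 157 (rank 4227) at 187 bp upstream and 27 bp from Sec13, and the replicates gave 36.0, 66.4 and 49.8 at ranks 5526, 4582 and 4162. ATPsynbeta, the catalytic subunit, stood last of all at 79.6 (rank 8490), 98 bp from its nearest start and 9 bp from that of CG11076. The replicates gave 21.3, 31.0 and 35.2 at ranks 9858, 10362 and 6028. The row of replicate 3, the one among its 8700 strongest, lies 352 bp from the nearest start, while those of replicates 1 and 2 lie at 96 and 95 bp. All of these complex V summits lie nearer to another gene's start than to the subunit gene's own. ATPsynB, ATPsynC, ATPsynD, ATPsynF, ATPsynG, ATPsynO, ATPsyndelta and ATPsyngamma had none within 1000 bp.

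Across the 18 genes, summits mostly lay close to the nearest annotated start, which is not always the gene's first. Measured from that nearest start, the strongest summit was upstream in 13 genes and downstream in 5, within 300 bp in 13 and beyond 450 bp in 5. The summits of COX5A, ATPsynbeta, ND-49 and ND-B18 count as upstream of a later start but lie inside the gene, downstream of its first start. The median distance was 176 bp, against 225 bp over all genes with a summit. The median signal value was 203, against 215 over all genes, so the peaks were of usual strength. The strongest summit lay in intergenic DNA for 8 genes, in an intron for 5, in a 5' UTR for 4 and in a 3' UTR for 1. On arm 2R 1 of 17 subunit genes had a summit (5.88%, against 19.8% of all genes there), the lowest share of the arms. All 3 replicates' own strongest rows overlapped the strongest peak of 11 of the 18 genes (61.1%), against 76.7% over all genes with a summit.

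**Figure D3:**
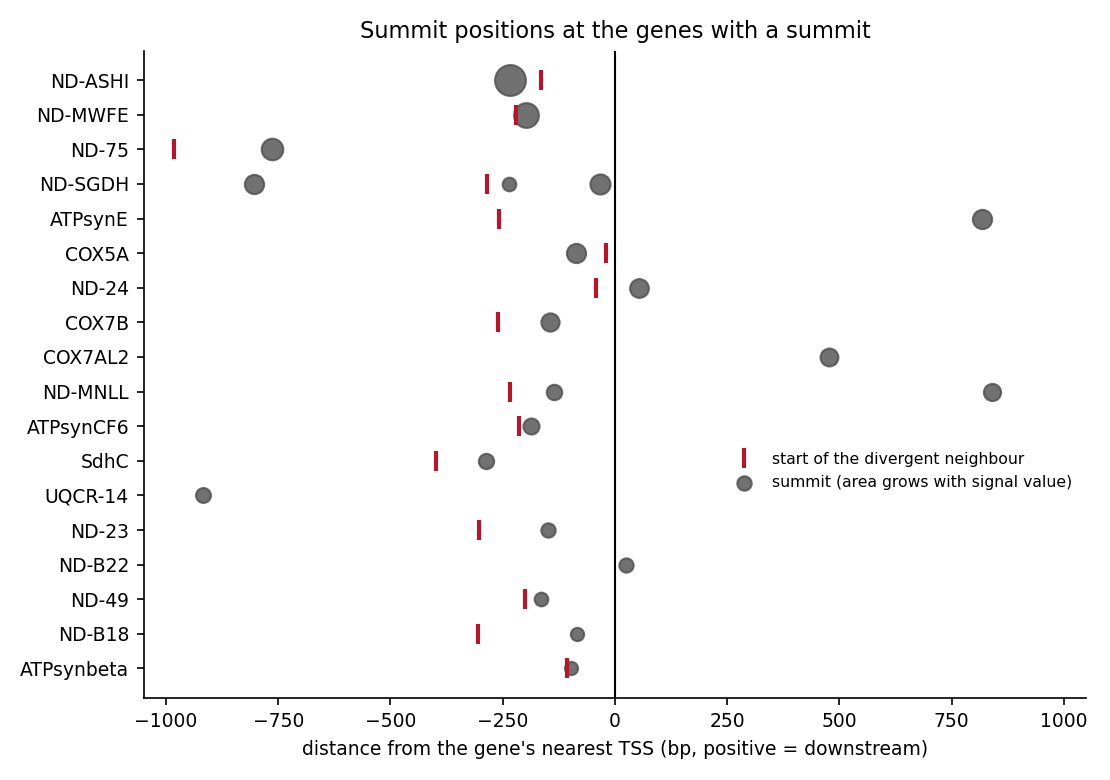
Distance of each IDR summit from the nearest TSS of the 18 genes with a summit (x axis, bp, positive is downstream), ordered by rank. Grey points are summits, larger with a larger signal value, and red ticks mark the start of a divergent neighbour. Ticks are measured from the gene's start closest to the neighbour. At genes with several starts, such as COX5A and ND-ASHI, the gap between tick and summit is therefore not a true distance. The strongest summit is upstream of the nearest TSS in 13 genes and within 300 bp of it in 13.

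The paralog classes differed more than the complexes did. Of the 24 L-suffixed paralogs, 1 (4.17%) had an IDR summit, and each replicate's own strongest rows also gave 1 (4.17%). Among the other 63 subunit genes, 17 (27.0%) had an IDR summit, and replicates 1, 2 and 3 gave 23.8, 25.4 and 33.3% (27.5% ± 5.10, SD, n = 3). All protein-coding genes stood at 23.0% in the IDR set and 26.7, 25.4 and 24.6% in the replicates. The L-suffixed values lay below all of these, while the other subunit genes stood near the background, below it in replicate 1 and above it in replicate 3. The 18 partners had 6 genes with a summit (33.3%), namely ATPsynCF6, ATPsynbeta, ND-24, ND-49, SdhC and UQCR-14, with 4, 4 and 8 genes in the replicates (29.6% ± 12.8, SD, n = 3). The 45 genes without an L-suffixed paralog had 11 (24.4%), with 11, 12 and 13 in the replicates (26.7% ± 2.22, SD, n = 3).

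Each L-suffixed paralog was set beside its partner, which gave 24 pairs once sun, levy and cype, partners named outside the symbol rule and paired by hand, were added. Since levy, COX7A and ND-51 each stand in more than 1 pair, the pairs hold 21 different partners. In 9 pairs only the partner had an IDR summit, in 1 only the L-suffixed gene had it, in 0 both had it and in 14 neither did. The 9 were ATPsynCF6L, ATPsynbetaL, COX6AL, COX6AL2, COX6CL, ND-24L, ND-49L, SdhCL and UQCR-14L. The summit near levy counts for both COX6AL and COX6AL2. ND-24 lay 54 bp from its nearest IDR summit and ND-24L lay 63423 bp from its own. For ATPsynCF6 and ATPsynCF6L the distances were 187 and 68898 bp. For ATPsynbeta and ATPsynbetaL they were 98 and 30863 bp, and for SdhC and SdhCL they were 287 and 38343 bp. The L-suffixed gene was farther from an IDR summit than its partner in 18 pairs and closer in 6. The median distance to the nearest IDR summit was 13199 bp for L-suffixed genes, 3740 bp for the 18 partners and 6244 bp for all protein-coding genes.

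**Figure D4:**
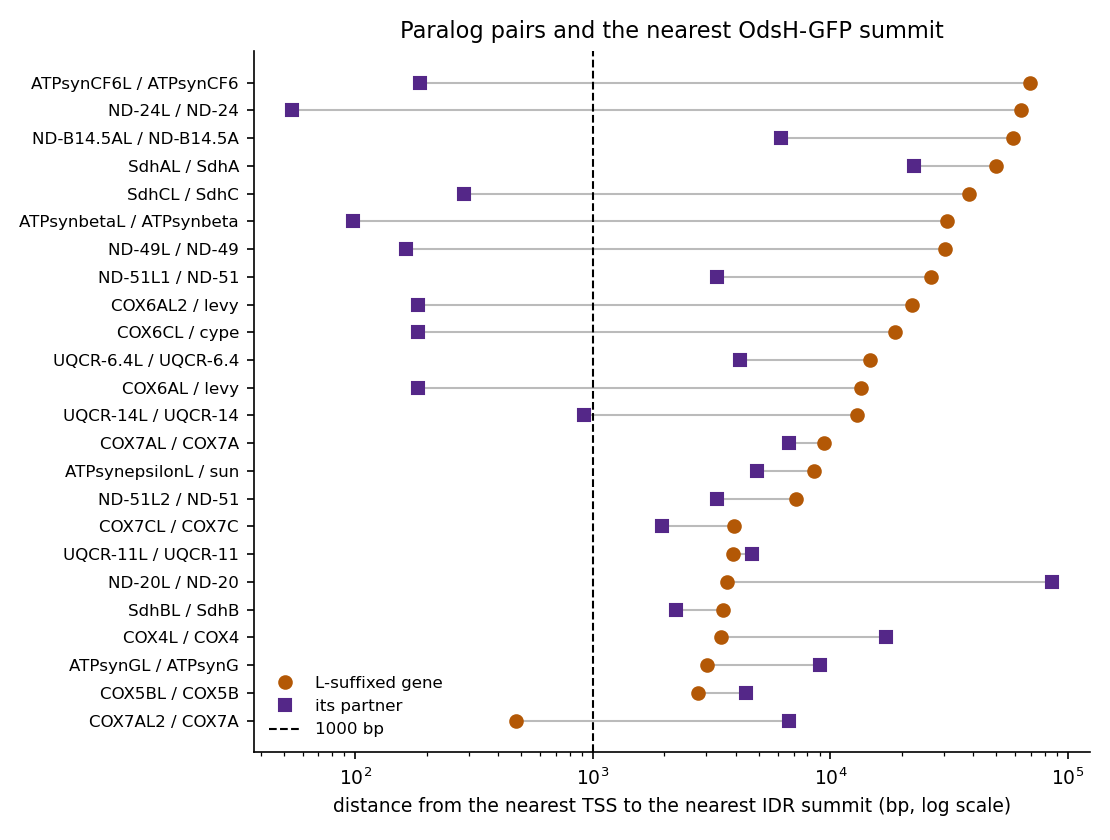
Distance from the nearest TSS to the nearest IDR summit (x axis, bp, log scale) for each L-suffixed gene (circles) and its partner (squares), with a line joining the pair and a dashed line at 1000 bp. Partners lie left of the dashed line in 9 pairs, and COX7AL2 is the only L-suffixed gene to do so.

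The exception was COX7AL2 (FBgn0085201, chr2L:2192525-2197912, minus strand), paired by symbol with COX7A. Its summit lies 476 bp downstream of a start in its 5' UTR, with a signal value of 214 (rank 2826) and 70.5, 86.0 and 50.6 in the replicates at ranks 2196, 3293 and 4084. It has 3 annotated TSSs, and COX7A has its nearest IDR summit at 6666 bp. Among the other L-suffixed genes, UQCR-6.4L was listed in all replicates' full lists, near the bottom of the pooled list at rank 29467. COX4L and ND-20L also appeared in the pooled list, at ranks 26718 and 22581. No row lay within 1000 bp in any replicate for 14 of the 24, and the same held for 3 of the 18 partners. No share over all genes is given for this count. The pairs with a summit at neither gene joined ATPsynGL, ATPsynepsilonL, COX4L, COX5BL, COX7AL, COX7CL, ND-20L, ND-51L1, ND-51L2, ND-B14.5AL, SdhAL, SdhBL, UQCR-11L and UQCR-6.4L to their partners.

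Promoter layout moved with these classes. Of the L-suffixed genes, 21 of 24 have 1 annotated TSS and 4 (16.7%) have a divergent neighbour, a gene that starts on the other strand within 1000 bp upstream. Among the other subunit genes 31 of 63 have 1 TSS and 63.5% have a divergent neighbour, against 36.2% of all genes. Over all protein-coding genes an IDR summit was found at 16.4% of those with 1 TSS, 34.5% with 2 and 57.3% with 3 or more, and at 33.1% of those with a divergent neighbour against 17.3% of the rest. With one TSS counted per gene, the L-suffixed share remained 4.17% and that of the other subunit genes 27.0%. Within genes of 1 TSS and no divergent neighbour, 0 of 18 L-suffixed genes had a summit, against 11.4% of all genes of that layout and 1 of 14 other subunit genes. The part of promoter layout in the class difference was otherwise not tested.

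Subunit genes with a divergent neighbour had a summit in 15 of 44 cases (34.1%), close to the 33.1% of all such genes. Without a divergent neighbour it was 3 of 43 (6.98%), namely ND-B22, UQCR-14 and COX7AL2, against 17.3% of all such genes. The strongest summit was nearest to the subunit gene itself in 11 of the 18 genes, counting a tie at 840 bp between ND-MNLL and CG45089, and nearest to another protein-coding gene in 7, so peak lists alone do not assign these summits to one of the 2 genes. When each summit was given only to its nearest gene, 11 subunit genes (12.6%) had one, against 18.0% of all genes. On the X chromosome 6 of 13 subunit genes had a summit (46.2%, against 25.6% of all genes there) and on arm 4 both of 2 did, ND-49 and ATPsynbeta, against 32.5%. On 2L, 3L and 3R it was 2 of 16, 2 of 20 and 5 of 19, against 22.9, 24.4 and 22.7% of all genes there.

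The nuclear respiratory gene element was more common at the 63 subunit genes without an L than over all genes. It was searched as TTATATAA, TTATGTAA, TTACATAA and TTACGTAA on both strands. These spellings were reported from Drosophila genes of this pathway, so their share here is not independent of the choice of words. Within 500 bp of the first start, 66.7% of citric acid cycle and pyruvate dehydrogenase genes also held the element. The stretches below show it in 8 genes of all 5 complexes, 61 bases each, on the gene's strand in the RefSeq release 6 genome, with the element in capitals. They were picked after the positions were seen, from genes with a copy in or next to the most filled bin of positions, 200 to 250 bp downstream of the first start, and no UTR run over 30 bases in the window.
ND-23 (chr3R:15836877-15836937, minus strand): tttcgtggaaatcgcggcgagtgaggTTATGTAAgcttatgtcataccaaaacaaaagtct
ND-51 (chr2L:6062483-6062543, minus strand): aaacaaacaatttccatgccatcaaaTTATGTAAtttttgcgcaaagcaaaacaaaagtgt
ND-B18 (chrX:15063954-15064014, plus strand): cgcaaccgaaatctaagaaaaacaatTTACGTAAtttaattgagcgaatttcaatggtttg
SdhD (chr3R:23760362-23760422, minus strand): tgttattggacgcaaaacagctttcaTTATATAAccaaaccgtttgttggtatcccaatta
UQCR-C1 (chr3R:14890447-14890507, plus strand): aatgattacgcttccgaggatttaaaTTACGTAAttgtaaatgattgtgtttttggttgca
COX7B (chr3L:17425668-17425728, plus strand): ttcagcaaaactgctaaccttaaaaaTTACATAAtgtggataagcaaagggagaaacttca
ATPsynCF6 (chr3R:23355825-23355885, minus strand): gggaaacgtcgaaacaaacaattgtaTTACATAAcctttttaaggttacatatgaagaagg
ATPsynB (chr3L:9730203-9730263, plus strand): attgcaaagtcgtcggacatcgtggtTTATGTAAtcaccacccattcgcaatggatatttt
In these genes the middle of the element lies 210, 244, 251, 208, 246, 221, 209 and 234 bp downstream of the first start, in the order printed. Other genes hold it elsewhere, such as ND-PDSW at 375, ND-B17 at 381, COX5B at 383 and ND-24 at 448 bp.

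Within 500 bp either side of the first start, 45 of the 63 subunit genes without an L (71.4%) held the element, against 14.7% of all protein-coding genes and 1 of the 24 L-suffixed paralogs (4.17%). Downstream of the start the counts were 44 of 63 (69.8%), 5.67% of all genes and 0 of 24. Upstream they were 7 of 63 (11.1%), against 9.62% of all genes. In the narrower window from 250 bases before to 50 after the start it was held by 5 of the 87 genes (5.75%), against 5.18% of all genes. The division by position was made after the wider window had been seen. Of the 56 copies in the 87 genes, 48 lay downstream, and 34 lay in introns. The bin from 200 to 250 bp downstream held a copy in 19 of the 63 genes (30.2%), against 0.789% of all genes. By complex, the wider window held it in 24 of 34 genes of complex I, 3 of 4 of complex II, 3 of 6 of complex III, 5 of 8 of complex IV and 10 of 11 of complex V. A match is a description of letters and says nothing of what binds there.

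**Figure D5:**
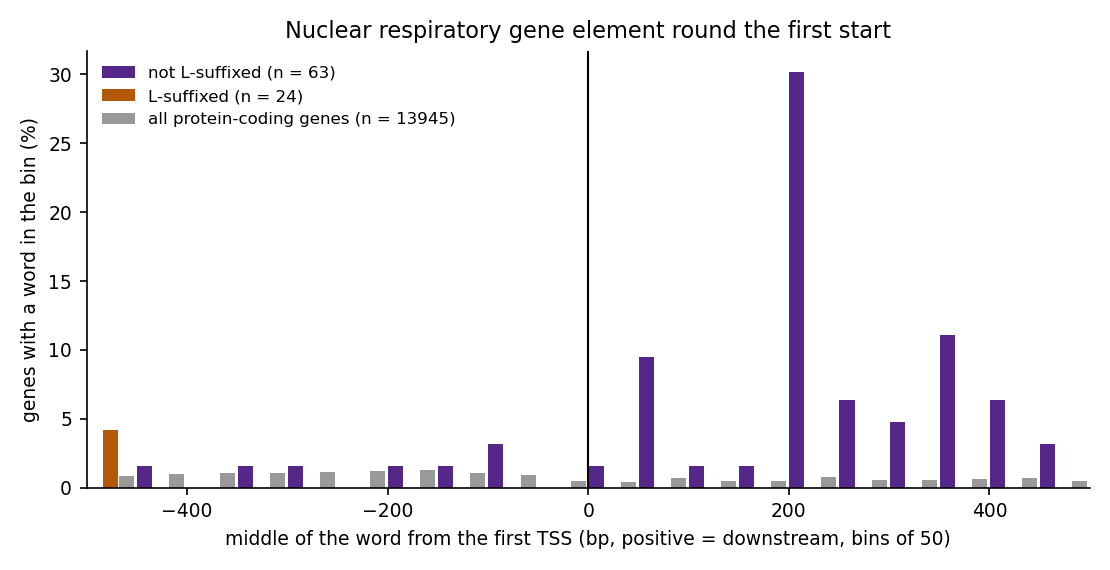
Share of genes (%, y axis) with a nuclear respiratory gene element whose middle falls in each bin of 50 bp from the first TSS (x axis, positive is downstream), for subunit genes without an L (63), L-suffixed paralogs (24) and all protein-coding genes (13945). The highest bar, 30.2% at 200 to 250 bp downstream, belongs to the subunit genes without an L.

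The element and the OdsH-GFP summits mostly lay apart. Among subunit genes without an L, the wider window held the element in 14 of 17 genes with an IDR summit and in 31 of 46 without one. At the genes with a summit, 2 of the 18 copies within 500 bp of the first start lay within 100 bp of an IDR summit, those upstream of ND-SGDH and ND-MNLL, and the median distance was 410 bp. The 101-base summit windows held the element in 1 of 21 summits near subunit genes (4.76%), the one at ND-49 printed above, a copy more than 500 bp from the first start of that gene and so not among the 18, against 2.97% of all summits near a TSS.

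Other words, each searched on both strands and allowed to overlap others, were counted in the 300 bases from 250 before to 50 after the first start. Core promoter motif 1, GGTCACAC, was held by 16 of the 87 genes (18.4%), against 7.70% of all genes, with 1 of 24 L-suffixed genes, 4 of 18 partners and 11 of 45 genes without a paralog. The DNA replication-related element TATCGATA was held by 9 (10.3%), against 9.36%, and by 0 of 24 L-suffixed genes and 4 of 18 partners. The E-box CAGCTG was held by 21 (24.1%, against 17.7%) and CACGTG by 4 (4.60%, against 4.20%). The homeodomain core TAATTA was held by 21 (24.1%, against 20.4%), and TATAAAA by 20 (23.0%, against 24.2%). Under the summits, TATAAAA was found in 4 of 21 windows (19.0%, against 9.91% of all summits near a TSS) and TAATTA in 1 of 21 (4.76%, against 11.0%). These counts of 1 to 4 windows are too few to set one share above the other.

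Some strong rows near subunit genes were missing from one replicate and from the pooled list. ND-42, an accessory subunit of complex I on arm 3R, had a row with a signal value of 98.1 (rank 1276) at 206 bp upstream in replicate 1 and a row of 111 (rank 1345) at 233 bp upstream in replicate 3. Replicate 2, the pooled list and the IDR set had none there, and the nearest IDR summit was 2152 bp away. ND-51 had a row of 47.5 (rank 4385) at 68 bp upstream in replicate 3 alone. Such gaps are not particular to these genes. Of the 2175 strongest rows of replicates 1, 2 and 3, 77 (3.54%), 54 (2.48%) and 70 (3.22%) were overlapped by no row of the pooled list, and the cause was not tested. In all, 12 subunit genes had a summit in the strongest rows of all 3 replicates, 5 in those of 2, 9 in those of 1 and 61 in none. Over all genes the shares in replicates 1, 2 and 3 were 26.7, 25.4 and 24.6%. No share of all genes by number of replicates is given here, so these counts only describe the members.

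Genes of the same pathway under other names were counted by the same rule. All lists are read beside the 23.0% of all genes. Of 8 further subunits and electron carriers, 6 had an IDR summit (75.0%), and RFeSP and sun had none. Cyt-c-d and Cyt-c-p, the cytochrome c genes, lie beside each other and had the strongest, with signal values of 915 (rank 179) and 841 (rank 234). They were followed by blw, the alpha subunit of the ATP synthase, with 340, then levy and cype of complex IV with 147 and 133, and Cyt-c1 of complex III with 101. All 8 held the nuclear respiratory gene element within 500 bp of the first start. Of 12 assembly factors, 3 had a summit (25.0%), close to that share. These were CIA30, a complex I assembly factor, with 1162 (rank 85), Cox17, a copper chaperone, with 345, and Nubpl with 111.

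Of 15 citric acid cycle and pyruvate dehydrogenase genes, 5 had a summit (33.3%, against 23.0% of all genes). Idh3g, a subunit of isocitrate dehydrogenase, had 804 (rank 254), Fum1 shared the summit of ND-ASHI, and mAcon1, Scsalpha1 and Ogdh had 350, 125 and 87.2. Of 11 genes for upkeep and transcription of mitochondrial DNA, 2 had a summit (18.2%), mtSSB with 258 and mTerf5 with 194. Of 8 regulators known for respiratory genes, 3 had a summit (37.5%). ERR had a summit of 433 (rank 950), cnc of 411 (rank 1036) and crc of 184 (rank 3452), and the other 5 had none.

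The mitochondrial ribosomal protein genes, which serve the translation of mitochondrially encoded subunits, had a summit at 32 of 73 (43.8%), against 23.0% of all genes. Replicates 1, 2 and 3 gave 41.1, 46.6 and 39.7% (42.5% ± 3.62, SD, n = 3), above the subunit genes' 18.4, 19.5 and 25.3% and the 26.7, 25.4 and 24.6% of all genes in each replicate. The difference was larger than the spread of either set, though an exact test over 3 replicates cannot give a two-sided p below 0.25. A divergent neighbour was present at 79.5% of the ribosomal protein genes and at 50.6% of the subunit genes, and the part of this in the difference was not tested. The median signal value of the strongest summits was 178 at the ribosomal protein genes and 203 at the subunit genes.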

How the data were processed

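Peak lists on build dm6 were used as deposited. Signal values are the authors', one per peak, and the summit is the peak start plus the deposited offset. Neither aligner nor caller is named in the labels or files (not given in the sources used here). Replicates are named by the number in the labels. The dm3 lists were not used here, for want of an annotation of that build. TSSs came from Ensembl release 115 (release 6 assembly), and sequences from the RefSeq release 6 genome. All peaks fall inside its arms. No difference was tested, since the series has 1 group. Shares are read beside that of all 13945 protein-coding genes, and spread is given over the 3 replicates' own strongest 8700 rows. The members and lists were chosen with earlier results of these data known. Genes named are all members, the 15 strongest and all of complex II with full values, every paralog pair, the genes nearest the window's edge, and up to 5 per context list. UQCR-11, COX8, ND-42 and ND-51 were described after their values were seen. Of the context symbols, 7 assembly factors, 8 citric acid cycle symbols, 3 of mitochondrial DNA upkeep and 2 further subunits did not match the annotation and were left out. Counting was checked on made-up data. Python 3.11.15, numpy 2.4.6, pandas 2.3.3 and scipy 1.17.1 were used. Alternatives changed the window, the TSSs, the peak set, replicate support and the nearest-gene rule.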

Additional observations from a re-analysis of the deposited data

How the results depend on the processing

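The L-suffixed share stayed below that of the other subunit genes under every setting tried. It was 0 genes within 200 bp and 4 in the pooled list without the threshold, against 1 as reported. Subunit genes as one set stayed below all genes except within 200 bp (13.8%, against 11.8%) and in replicate 3 alone (25.3%, against 24.6%). Their count moved from 18 to 11 (12.6%) with the stronger IDR peaks, with support by all 3 replicates or with the nearest gene only. The share of all genes moved too, from 23.0% to 15.2, 17.7 and 18.0% at these settings. Reciprocal overlap of 50% gave 10 genes (11.5%, against 13.3%) and the pooled list 33 (37.9%, against 38.6%). All genes stood at 11.8% within 200 bp, 19.0% within 500 bp and 29.2% within 2000 bp. The counts that follow are read beside these shares of all genes. Complex I moved from 10 to 6 with the stronger peaks and to 5 with either form of support. Complex II moved from 1 to 0 within 200 bp, with the stronger peaks or the nearest gene only, to 3 in the pooled list and 2 in replicate 2. Complex III moved from 1 to 0 within 500 or 200 bp or with the stronger peaks, to 2 within 2000 bp or in replicate 3, and to 4 in the pooled list. Complex IV moved from 3 to 6 in the pooled list. Complex V moved from 3 to 6 within 2000 bp, to 1 with either form of support, to 5 in the pooled list and to 0 with the nearest gene only. Partners moved from 6 to 2 with the stronger peaks, to 3 with either form of support or the nearest gene only, and to 10 in the pooled list. Where one replicate was left out of the support, complex I ranged from 5 to 7, complex V from 1 to 2 and the partners from 3 to 4. The median signal value fell from 203 to 157 within 500 bp. In 500 bases either side of the start, the shares of the 87 genes rose to 55.2% for CAGCTG, 41.4% for TAATTA, 52.9% for the nuclear respiratory gene element and 41.4% for TATAAAA, against 42.0, 46.3, 14.7 and 44.7% of all genes. There CACGTG turned from just above all genes (4.60%, against 4.20%) to below (8.05%, against 12.9%), and TATCGATA rose from 10.3 to 16.1%, against 12.3%. The share of subunit genes without an L fell below that of all genes with support by all 3 replicates (15.9%, against 17.7%), in replicate 1 alone (23.8%, against 26.7%) without replicate 1 or 3 (17.5%, against 18.8 and 19.5%) and with the nearest gene only (15.9%, against 18.0%). In replicate 2 alone both rounded to 25.4%. No paired analysis was possible because there is 1 group. Where a value moved, the cause was not tested. Depth per library is unknown, so the limit it sets cannot be given.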

Other observations

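The nuclear respiratory gene element was also counted in the other gene lists. It was held within 500 bp of the first start by 10 of 15 citric acid cycle and pyruvate dehydrogenase genes (66.7%), 5 of 12 assembly factors (41.7%), 4 of 11 genes for upkeep of mitochondrial DNA (36.4%), 2 of 8 regulators (25.0%) and 21 of 73 mitochondrial ribosomal protein genes (28.8%), against 14.7% of all protein-coding genes. An OdsH-GFP summit lay near 43.8% of the ribosomal protein genes and 27.0% of the subunit genes without an L. For the element these shares were 28.8 and 71.4%. Other lists did not follow this inverse order. Of the 8 further subunits and electron carriers, 75.0% had a summit and 100% held the element. Of its spellings, TTATATAA was held by 13 of the 63 subunit genes without an L, TTATGTAA or its reverse complement by 27 and TTACGTAA by 11.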
